A study of Mus musculus with 16 samples.

Results

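Cxcl1, Ccl2 and Ccl17 are 3 chemokine genes among the 12100 genes of an expression table from mouse embryonic fibroblasts treated with TGFβ. They were picked from these same measurements because Cxcl1 fell after TGFβ while Ccl2 and Ccl17 increased, and because the 3 changes began at different times. Their change after TGFβ is therefore given as a description without a test. The differences between cell lines were not used in the choice and are tested. All 3 genes had a value in all 16 libraries. The table identifies them by RefSeq transcript as NM_008176 for Cxcl1, NM_011333 for Ccl2 and NM_011332 for Ccl17.

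The study measured polyadenylated RNA from fibroblasts that differ in Arkadia, the ubiquitin ligase encoded by Rnf111, which is known to strengthen TGFβ signalling by removing SnoN and other repressors. The WT cells carried both Arkadia alleles (Ark+/+), and the null cells carried none (Ark-/-). The rvWT cells were Ark-/- fibroblasts infected with a retrovirus, rvCAG-ArkWT, that drives wild-type Arkadia together with EGFP from the CAG promoter. The sim cells were Ark-/- fibroblasts infected with rvCAG-Arksim, in which core hydrophobic residues of 2 SUMO-interacting motifs of Arkadia, SIM1 and SIM3, were changed to alanine. Cells of all 4 lines were grown in serum-containing medium and were either untreated (0 h) or given TGFβ at 2.5 ng/ml for 1, 4 or 16 h. The library codes in the titles carry the letter A or B, whose meaning the labels do not give, and the libraries are called set A and set B here. Set A held WT and null cells at 0, 1, 4 and 16 h (8 libraries). Set B held rvWT and sim cells at 0, 1 and 4 h and null cells at 0 and 1 h (8 libraries). This makes 5 series, each with its own 0 h library. There was 1 library per line and time within a set, so only the null cells at 0 and 1 h were measured more than once. No fibroblasts infected with an empty retrovirus were analysed here, so infection and the Arkadia it delivers cannot be told apart. Nothing in the labels says that libraries came from separate cultures or that a line is more than 1 population of cells, and the p-values measure only the spread between these libraries.

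Chemokines are small secreted proteins that attract leukocytes by binding receptors on their surface. Cxcl1 binds Cxcr2 and draws neutrophils, Ccl2 binds Ccr2 and draws monocytes, and Ccl17 binds Ccr4 and draws regulatory and type 2 helper T cells. In fibroblasts, Cxcl1 and Ccl2 are known targets of NF-κB, and the Cxcl1 mRNA is short-lived because of its AU-rich elements. Ccl17 is best known from dendritic cells, where IL-4 acting through STAT6 induces it. TGFβ itself signals through SMAD2 and SMAD3, which bind DNA with SMAD4.

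Promoter sequences are shown because 2 of these genes moved in opposite directions after the same stimulus, and their start regions could be compared for the binding words of the factors named above. RefSeq windows in GRCm38.p6, from 250 bases before to 50 bases after the transcription start, were matched for 2 of the 3 genes, Cxcl1 and Ccl17. The Cxcl1 window is chr5:90890995-90891294 on the + strand, and the Ccl17 window is chr8:94810203-94810502 on the + strand. Capitals mark the κB consensus match in Cxcl1 and the STAT6 consensus match in Ccl17.
Cxcl1: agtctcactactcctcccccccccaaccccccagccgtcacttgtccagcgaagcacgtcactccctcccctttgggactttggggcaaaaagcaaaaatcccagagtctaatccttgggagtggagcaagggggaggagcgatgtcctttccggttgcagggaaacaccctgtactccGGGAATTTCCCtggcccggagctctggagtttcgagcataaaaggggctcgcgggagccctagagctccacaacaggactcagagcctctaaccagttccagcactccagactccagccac
Ccl17: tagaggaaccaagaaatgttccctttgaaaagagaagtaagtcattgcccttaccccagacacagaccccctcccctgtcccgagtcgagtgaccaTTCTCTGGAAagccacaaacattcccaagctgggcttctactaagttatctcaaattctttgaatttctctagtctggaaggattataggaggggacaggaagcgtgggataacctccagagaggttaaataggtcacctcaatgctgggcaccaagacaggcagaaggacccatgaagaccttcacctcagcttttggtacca
Both strands were searched, the κB consensus and the STAT6 consensus as such and the others letter for letter. The STAT6 consensus is TTC, then any 4 bases, then GAA. In the Cxcl1 window, a κB match on the + strand began at position -71, counted with the start site as 0, and an overlapping match on the - strand began at position -70. The Ccl17 window had no κB match and 1 STAT6 consensus match, at position -154, found on both strands because the consensus is symmetric. The Cxcl1 window had no STAT6 consensus match. CAGAC, the core of the SMAD binding element, occurred 3 times in the Ccl17 window and 1 time in the Cxcl1 window. TGANTCA, the AP-1 word, occurred in neither. Among 32851 RefSeq windows of the same length, 8.46% held a κB match, 6.95% the STAT6 consensus and 7.81% the AP-1 word. CAGAC occurred in 49.6% of them, and 3.899% held it 3 or more times. GC content was 58.7% for the Cxcl1 window and 48.0% for the Ccl17 window. These matches describe letters, not occupied sites.

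Levels are FPKM, fragments scaled to transcript length and to library size, and library totals ran from 397019 to 481970 FPKM. Rnf111 stood at 14.5 to 15.1 FPKM in WT cells, 0.121 to 0.526 in the 6 null libraries, 102.5 to 125.8 in rvWT cells and 56.0 to 62.1 in sim cells. Each library thus matched its label as null, WT or infected. These levels show neither the alanine changes of the sim cells nor the treatment time. All 8 tested genes of a list of direct TGFβ targets passed the test upward at 1, 4 and 16 h. Of the fibroblast markers, 10 of 12 had values, with summed levels of 2626 to 3069 FPKM in WT, 3259 to 4580 in the null cells, 5413 to 5742 in sim and 5693 to 6374 in rvWT cells. Single markers differed more: Col3a1 was 7.32 to 11.6 FPKM in WT and 279.3 to 664.9 elsewhere, and Lum at most 0.0612 in WT and 4.05 to 43.1 elsewhere. Of the endothelial and epithelial markers 2 of 5 each had values, with sums of 0.248 to 10.8 and 1.38 to 13.9 FPKM. Of the macrophage and dendritic cell markers, 5 of 14 had values (Csf1r, Cd14, Cd68, Cd74 and Lyz2), and their sum was 7.30 to 9.45 FPKM in WT and 14.7 to 18.7 in the other libraries. In bulk RNA, a lower level through fewer expressing cells and through less RNA per cell cannot be told apart. Sequencing depth was not recovered from the FPKM values, so no counting error is given.

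Cxcl1 fell early and stayed low. At 0 h its level was 15.6 FPKM in WT, 13.1 in null cells of set A, 14.4 in null cells of set B, 12.7 in rvWT and 19.1 in sim cells. At 1 h it was 1.90 in WT, 1.78 and 2.77 in the null cells of sets A and B, 0.762 in rvWT and 0.653 in sim cells. At 4 h it was 6.42 in WT, 3.34 in null, 2.70 in rvWT and 2.79 in sim cells, and at 16 h it was 3.92 in WT and 1.52 in null cells. Every treated library thus lay below every 0 h library, in a gene chosen for its fall. How many other genes did so was not counted. Relative to its own 0 h library, Cxcl1 was between 5.19-fold and 29.2-fold lower at 1 h in the 5 series. The deepest drops were those of sim and rvWT cells.

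From 1 to 4 h Cxcl1 recovered in part in all 4 series followed that far, by 1.88-fold to 4.27-fold, and still stood 2.43-fold to 6.84-fold below 0 h. From 4 to 16 h it fell again, 1.64-fold in WT and 2.196-fold in null cells. The mean change in log2(FPKM + 1) from 0 h was -2.69 ± 0.61 (SD, n = 5 series) at 1 h, -1.79 ± 0.51 (n = 4) at 4 h and -2.12 ± 0.51 (n = 2) at 16 h. Fitted within sets, with series as a block, the change at 1 h was -2.43 in set A and -2.86 in set B, and at 4 h it was -1.43 and -1.94. Because of the added 1 FPKM, these values understate the drop where the level came close to 1 FPKM.

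Ccl2 changed little at 1 h and was well above its 0 h level from 4 h on. At 0 h the level was 126.2 FPKM in WT, 169.3 and 146.1 in the null cells of sets A and B, 161.5 in rvWT and 137.0 in sim cells. At 1 h it was 112.3 in WT, 211.0 and 213.5 in the null cells, 209.9 in rvWT and 198.8 in sim cells. The ranges at 0 and 1 h overlapped, because WT was lower than all 0 h libraries and the other 4 series were higher. At 4 h the level reached 442.9 in both WT and null cells, 728.9 in rvWT and 737.9 in sim cells, and at 16 h it was 321.3 in WT and 483.9 in null cells. All 4 h and 16 h libraries were above all earlier ones, in a gene chosen for its increase, and other genes were not counted for this.

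In fold terms, Ccl2 was at 0.890 of its 0 h level in WT at 1 h and at up to 1.46-fold of it elsewhere. It reached 2.62-fold to 5.38-fold at 4 h, and 2.55-fold and 2.86-fold at 16 h. The mean log2 change was 0.32 ± 0.29 (SD, n = 5 series) at 1 h, 1.94 ± 0.45 (n = 4) at 4 h and 1.43 ± 0.12 (n = 2) at 16 h. Fitted within sets, the change was 0.07 in set A and 0.48 in set B at 1 h, and 1.59 and 2.31 at 4 h.

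Ccl17 climbed at each step. At 0 h the level was 1.68 FPKM in WT, 1.53 and 2.04 in the null cells of sets A and B, 5.54 in rvWT and 3.59 in sim cells. At 1 h it was 4.66 in WT, 2.14 and 3.07 in the null cells, 7.06 in rvWT and 5.57 in sim cells. At 4 h it was 11.3 in WT, 4.52 in null, 15.04 in rvWT and 14.0 in sim cells, and at 16 h it was 40.2 in WT and 14.7 in null cells. The starting levels spread so widely that the 1 h and 4 h ranges overlapped that of 0 h. Within each series, however, every later library was higher than the one before.

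Relative to its own 0 h library, Ccl17 stood at 1.27-fold to 2.78-fold at 1 h, 2.71-fold to 6.77-fold at 4 h, and 9.62-fold in null and 24.0-fold in WT cells at 16 h. The mean log2 change was 0.53 ± 0.32 (SD, n = 5 series) at 1 h, 1.58 ± 0.48 (n = 4) at 4 h and 3.29 ± 0.93 (n = 2) at 16 h. Fitted within sets, the change was 0.70 in set A and 0.41 in set B at 1 h, and 1.67 and 1.503 at 4 h. Cd74, the invariant chain of antigen-presenting cells, was also higher at 16 h (0.78 ± 0.12, SE, log2; adjusted p = 0.00203, limma), while Cd14, Cd68 and Lyz2 stood at -0.05, -0.21 and -0.26 (adjusted p = 0.824, 0.449 and 0.335, limma), and the part of such cells in the Ccl17 change was not tested. The plot of levels by time shows the 3 courses side by side.

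**Figure D1:**
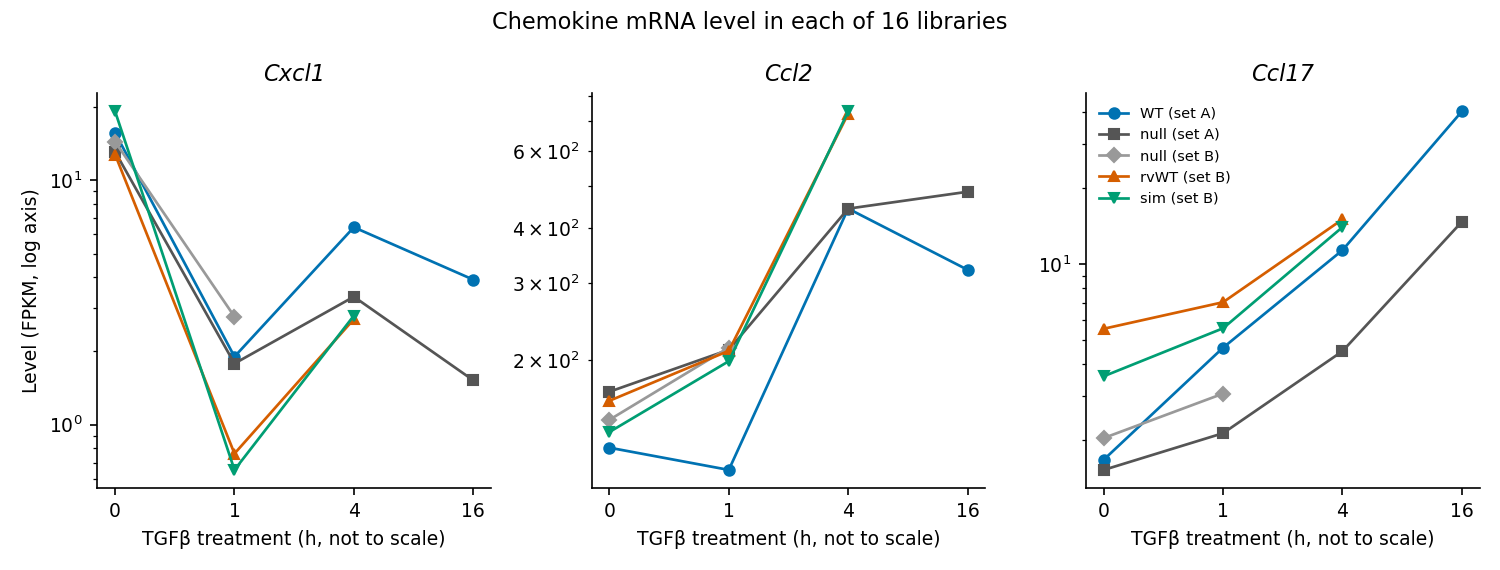
Level of Cxcl1, Ccl2 and Ccl17 in each of the 16 libraries (FPKM, log axis) against hours of TGFβ treatment (equally spaced, not to scale); each point is 1 library and each line 1 series. Cxcl1 drops from 12.7 to 19.1 FPKM at 0 h to at most 2.77 at 1 h, Ccl2 reaches 442.9 or more at 4 h, and Ccl17 climbs to 40.2 in WT cells at 16 h.

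The fraction of the chemokine message that each gene made up was very different. The 3 genes belong to a list of 39 chemokine ligands, of which 17 had values in the table. Of the summed FPKM of these 17, Ccl2 made up 20.4% to 58.2% across libraries and ranked first or second. Cxcl1 made up 0.084% to 4.73% and ranked between 4 and 16, and Ccl17 made up 0.38% to 5.77% and ranked between 4 and 12.

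Ordered over the 14 combinations of line and time, with the repeated null libraries averaged, Cxcl1 ran from sim at 0 h down to sim at 1 h, Ccl2 from sim at 4 h down to WT at 1 h, and Ccl17 from WT at 16 h down to WT at 0 h. The repeated null libraries give the scale for reading neighbours in these orders. Between sets they differed 1.10-fold at 0 h and 1.55-fold at 1 h for Cxcl1, 1.16-fold and 1.01-fold for Ccl2, and 1.34-fold and 1.44-fold for Ccl17. The SD of such repeats on the log2 scale was 0.23 for Cxcl1, 0.11 for Ccl2 and 0.23 for Ccl17. Of the 13 steps between neighbours, 9 for Cxcl1, 5 for Ccl2 and 6 for Ccl17 were no larger than this SD, so those neighbours did not differ beyond the spread.

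The lines were then compared at matched times within a set, with limma and time as a block. In set A, WT cells had more Cxcl1, less Ccl2 and more Ccl17 than null cells. Cxcl1 was 1.19-fold, 1.07-fold, 1.92-fold and 2.58-fold of the null level at 0, 1, 4 and 16 h, and the log2 difference was 0.51 ± 0.17 (SE; adjusted p = 0.0424, limma). Ccl2 was 0.745, 0.532, 1.00 and 0.664 of the null level, a log2 difference of -0.48 ± 0.14 (adjusted p = 0.0306, limma). Ccl17 was 1.10-fold, 2.18-fold, 2.51-fold and 2.74-fold of the null level, a log2 difference of 0.87 ± 0.22 (adjusted p = 0.0166, limma).

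Thus 3 of 3 genes passed the test between WT and null cells. However, 67.5% of the 10976 genes tested did so, 37.4% higher and 30.1% lower in WT, so passing the test does not set these 3 apart. The calls were close to the threshold. Leaving out the WT or the null library of 1 time ended the Ccl17 call for 1 h (adjusted p = 0.0522 and 0.0505, limma) and 4 h (0.0672 and 0.0670). It ended the Ccl2 call for 0, 1 and 16 h (0.0769 to 0.0873) and the Cxcl1 call for 0, 4 and 16 h (0.0618 to 0.144). Without the time block, which leaves the change over time in the spread, no gene of the 3 passed (adjusted p = 0.414 for Ccl17, 0.455 for Ccl2 and 0.528 for Cxcl1, limma).

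In set B, both infected lines had more Ccl17 than null cells. In rvWT cells Ccl17 was 2.71-fold of the null level at 0 h and 2.302-fold at 1 h, and the log2 difference was 0.99 ± 0.10 (SE; adjusted p = 0.00158, limma). In sim cells it was 1.76-fold and 1.82-fold, a log2 difference of 0.69 ± 0.10 (adjusted p = 0.00585, limma). The rvWT call held with each library left out in turn. The sim call was lost without the null library of 0 h (adjusted p = 0.0583, limma) or of 1 h (0.0527), and neither passed without the time block (0.117 and 0.225). Set B has no null library at 4 h, so the fit without the block mixes line and time.

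Neither Cxcl1 nor Ccl2 passed the test against null cells in set B. Cxcl1 in rvWT cells was 0.886 of the null level at 0 h and 0.275 at 1 h, with a log2 difference of -0.60 ± 0.34 (adjusted p = 0.220, limma). In sim cells it was 1.33-fold and 0.236, with -0.43 ± 0.34 (adjusted p = 0.364, limma). The single null library of 1 h carries these values: without it they became 0.03 and 0.19, and without the null library of 0 h the rvWT difference became -1.22 (adjusted p = 0.0360, limma). Ccl2 differed by 0.03 ± 0.07 in rvWT and by -0.07 ± 0.07 in sim cells (adjusted p = 0.768 and 0.496, limma).

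So 1 of 3 genes passed in each comparison with null cells in set B, where 38.6% of 10958 genes passed for rvWT and 34.7% for sim cells. Of all genes, 16% were higher in rvWT and 13.9% higher in sim cells, as Ccl17 was. Between sim and rvWT cells 0 of 3 passed by limma, beside 0.493% of all genes. At an unadjusted p below 0.05 there was 1 of the 3, beside 1818 of all 10958 genes. The log2 difference of sim minus rvWT was 0.16 ± 0.29 for Cxcl1, -0.10 ± 0.06 for Ccl2 and -0.30 ± 0.09 for Ccl17 (adjusted p = 0.788, 0.457 and 0.212, limma). The plot of line differences collects these values.

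**Figure D2:**
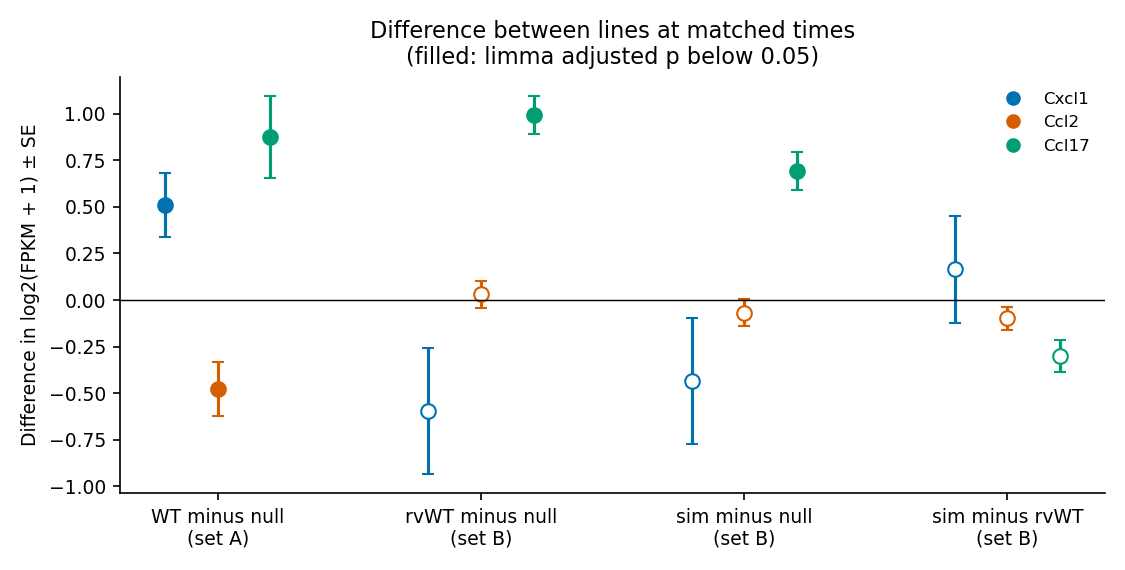
Difference between lines in log2(FPKM + 1) at matched times (points, with bars of 1 SE from limma) for Cxcl1, Ccl2 and Ccl17; filled points have an adjusted p below 0.05. Ccl17 is higher than in null cells in WT (0.87), rvWT (0.99) and sim (0.69), while Ccl2 lies within 0.10 of 0 in the 3 comparisons of set B.

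The macrophage and dendritic markers moved in different directions between these lines, and Cd74, named here after its values were seen, was higher in both infected lines. It stood at 7.45 to 9.48 FPKM in rvWT and 5.83 to 7.55 in sim cells, against 0.988 to 1.08 in the null cells of set B and 0.546 to 1.65 in WT. The log2 difference from null was 2.08 ± 0.06 in rvWT and 1.78 ± 0.06 in sim cells (SE; adjusted p = 4.45e-05 and 0.000106, limma). Cd14 went the other way, by -1.01 ± 0.09 in rvWT and -0.81 ± 0.09 in sim cells (adjusted p = 0.00104 and 0.00237, limma). Lyz2 stood at 0.30 ± 0.10 in rvWT and 0.56 ± 0.10 in sim cells (adjusted p = 0.0625 and 0.0105, limma), and Cd68 at -0.04 ± 0.23 and -0.02 ± 0.23 (adjusted p = 0.894 and 0.959, limma). The sum of the 5 markers was 16.8 to 17.4 FPKM in rvWT, 16.2 to 17.5 in sim and 14.7 to 18.7 in the null cells of set B. None of the 5 was at 0 in every library, and Lyz2 was at most 0.067 in WT. In WT cells, where Ccl17 also exceeded the null level, Cd74 differed from it by -0.09 ± 0.12, Cd14 by -1.70 ± 0.13 and Cd68 by 0.96 ± 0.12 (adjusted p = 0.540, 0.000246 and 0.00130, limma). The part of such cells in the Ccl17 difference was not tested.

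The response to TGFβ itself was compared between lines with a term for treated libraries of each line. In WT cells the mean response exceeded that of null cells by 0.95 ± 0.21 (SE, log2) for Ccl17 and by 0.13 ± 0.33 for Cxcl1, and it was -0.27 ± 0.32 for Ccl2. In rvWT cells the differences were 0.03 ± 0.22 for Ccl17, -0.56 ± 0.35 for Cxcl1 and 0.20 ± 0.33 for Ccl2. In sim cells they were 0.35 ± 0.22, -1.14 ± 0.35 and 0.40 ± 0.33. By limma 0 of 3 passed in each comparison (adjusted p = 0.663 for Ccl17 in WT, higher for the rest), and 0.0181%, 0.0996% and 0.0181% of 11045 genes did. At an unadjusted p below 0.05, 1 of 3 was found for WT, which was Ccl17, 0 for rvWT and 1 for sim, which was Cxcl1. At that threshold 409, 304 and 387 of all 11045 genes were found for WT, rvWT and sim.

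The chemokine genes that lie next to the 3 in the genome were compared next. Ccl7, the monocyte attractant whose gene neighbours Ccl2, followed Ccl2. Ccl8 and Ccl11, the other genes of this cluster with values, were low, at most 3.05 and 1.03 FPKM. Their mean log2 changes at 4 h were 0.20 and 0.23, beside 1.94 for Ccl2, but the added 1 FPKM shrinks them at such levels. In fold terms at 4 h, Ccl8 stood at 0.576 to 2.28 of 0 h, above it in 3 of 4 series. Ccl11 stood at 1.28-fold to 3.65-fold, above it in 4 of 4, beside 2.62-fold to 5.38-fold for Ccl2. At 16 h Ccl8 was below 0 h in 1 of 2 series and Ccl11 in 2 of 2. The rest of this paragraph is on Ccl7. Its level went from 48.0 to 34.3, 141.4 and 87.0 FPKM in WT over 0, 1, 4 and 16 h, and from 90.8 to 145.4, 246.3 and 224.1 in null cells of set A. In rvWT it went from 106.5 to 160.9 and 375.7, in sim from 82.1 to 163.3 and 416.8, and in null cells of set B from 57.5 to 96.3. As for Ccl2, WT was the one series that was lower at 1 h, and all 4 h levels were above the series' own start. The fitted change of Ccl7 was 1.81 ± 0.20 at 4 h and 1.31 ± 0.26 at 16 h (SE, log2; adjusted p = 0.000211 and 0.00746, limma), and the 16 h call was lost without the null library of 16 h (0.0918).

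Cx3cl1, the membrane-bound chemokine fractalkine and the neighbour of Ccl17, was higher in every treated library than in its own 0 h library. It went from 5.29 to 14.3, 17.1 and 32.5 FPKM in WT over 0, 1, 4 and 16 h, and from 13.6 to 24.2, 36.1 and 29.9 in null cells of set A. In rvWT it went from 36.7 to 71.1 and 139.0, in sim from 30.2 to 61.8 and 115.1, and in null cells of set B from 12.01 to 24.3. Its fitted changes were 0.99 ± 0.16 at 1 h, 1.66 ± 0.18 at 4 h and 1.81 ± 0.23 at 16 h (SE, log2; adjusted p = 0.00488, 0.000183 and 0.000674, limma). In WT cells it continued to climb to 16 h, as Ccl17 did, whereas in null cells it was lower at 16 h than at 4 h.

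Near Cxcl1, the neutrophil chemokines Cxcl5, Ppbp and Cxcl15 were all low and unlike Cxcl1 close to 0 in WT. At 0 h Cxcl5 was 0.0468 FPKM in WT and 1.26 to 3.44 in the other series, and it was lower in every treated library than at its own 0 h. Cxcl15 was 0.271 FPKM in WT and 0.769 to 4.15 elsewhere at 0 h, and its fitted change was -0.73 ± 0.16 at 4 h and -0.72 ± 0.21 at 16 h (SE, log2; adjusted p = 0.00599 and 0.0339, limma). Its 16 h call was lost without any of 6 libraries and with a pseudocount of 5. Ppbp, at 0.0775 FPKM in WT and 4.00 to 6.01 elsewhere at 0 h, did not pass at 4 h (-0.58, adjusted p = 0.136, limma) or 16 h (-1.03, adjusted p = 0.0822, limma). At 1 h Cxcl5 stood 2.11-fold to 4.21-fold and Cxcl15 1.01-fold to 1.45-fold below 0 h, beside 5.19-fold to 29.2-fold for Cxcl1. At 4 h Cxcl5 was 0 in WT and 5.37-fold to 15.6-fold below 0 h elsewhere, at 0.637 FPKM or less. Cxcl15 was then 1.85-fold to 7.83-fold, Ppbp 1.02-fold to 4.05-fold and Cxcl1 2.43-fold to 6.84-fold below. At 16 h Cxcl5 and Cxcl15 were 0 in WT, where Ppbp was at 1.69-fold of 0 h and Cxcl1 3.98-fold below. In null cells Cxcl5 was 39.7-fold, Cxcl15 23.5-fold, Ppbp 6.78-fold and Cxcl1 8.60-fold below. The plot of neighbouring chemokine genes gives these changes for Cxcl15 and Ppbp.

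**Figure D3:**
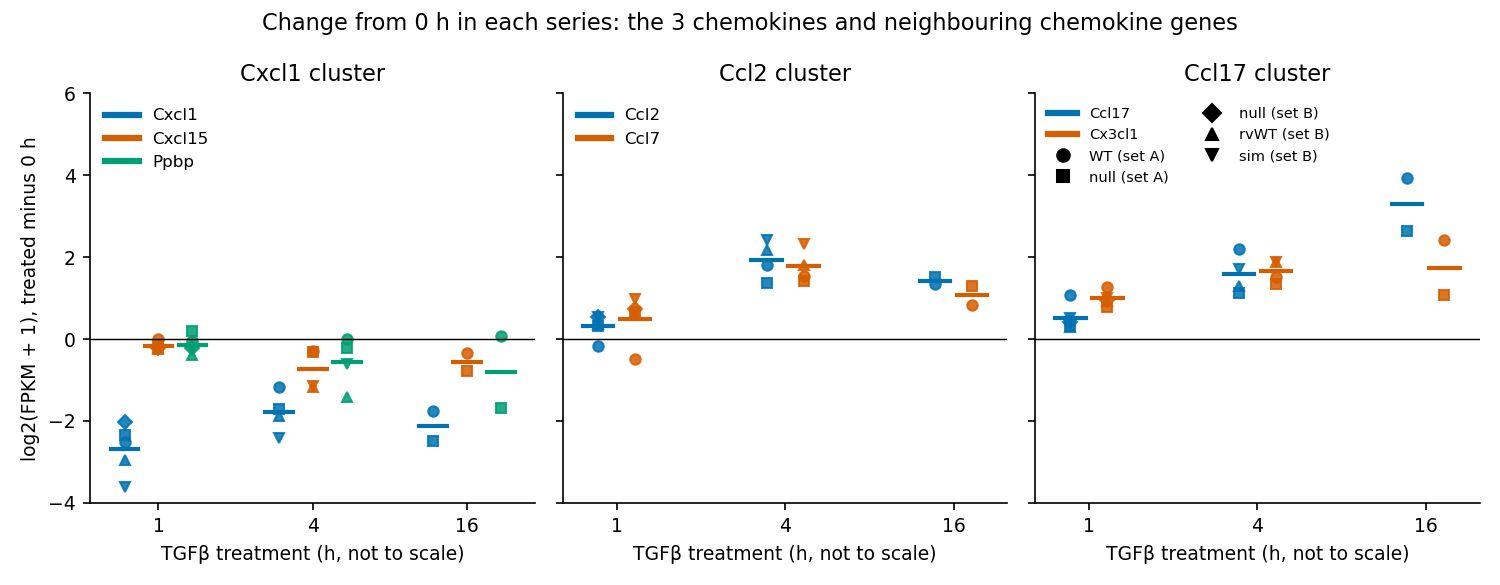
Change from 0 h in log2(FPKM + 1) within each series for Cxcl1, Ccl2 and Ccl17 and for Cxcl15, Ppbp, Ccl7 and Cx3cl1 of their clusters. Hours of TGFβ are not to scale. Each symbol is 1 series and each bar the mean. Cxcl5, Ccl8 and Ccl11 of these clusters are not drawn. Ccl7 lies close to Ccl2 at each time, Cxcl15 and Ppbp lie nearer to 0 than Cxcl1 at 1 h, and Ccl17 is above Cx3cl1 at 16 h (means 3.29 and 1.75).

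Over the whole ligand list, 11 genes other than the 3 passed the filter on low levels, a mean of at least 1 FPKM. The share of all 11045 genes that passed in either direction was 5.96% at 1 h, 39% at 4 h and 19.4% at 16 h, and nothing is read from it for the 3 genes chosen on this change. At 1 h 1 of the 11 rose, which was Cx3cl1, against 3.95% of all genes higher and 2.01% lower. At 4 h 4 rose and 1 fell, against 11.9% and 27.1%. The 4 were Ccl7, Cx3cl1, the interferon-inducible T cell attractant Cxcl10 (1.75 ± 0.23, adjusted p = 0.000448, limma) and the membrane-bound Cxcl16 (1.52 ± 0.11, adjusted p = 2.24e-05, limma), and the one that fell was Cxcl15. At 16 h the calls were again 4 up and 1 down, for the same 5 genes, against 6.84% and 12.5%, with Cxcl10 at 1.95 ± 0.30 and Cxcl16 at 0.95 ± 0.14 (adjusted p = 0.00167 and 0.00143, limma). The median log2 change of the 11 was 0.03, 0.19 and 0.49 at 1, 4 and 16 h, beside -0.03, -0.08 and -0.07 over all genes. Ccl5, Ccl8, Ccl9, Ccl25, Cxcl12 and Ppbp passed at no time, and Cxcl5, Ccl6 (0.120 to 0.757 FPKM) and Ccl11 (0.0858 to 1.03 FPKM) were below the filter.

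The balance of higher and lower calls over all genes moved with the scaling of libraries. At 4 h 1317 genes were higher and 2990 lower as deposited, 1899 and 1815 after median-ratio scaling, and 1666 and 1998 after quantile normalization. At 16 h the counts were 755 and 1384, 1047 and 946, and 1033 and 1021. For rvWT against null they were 1756 and 2474, 2102 and 2108, and 2468 and 2040, and for sim against null 1528 and 2279, 1816 and 1991, and 2197 and 1941. None of the TGFβ calls of named genes other than the 3 changed direction within a set. In set A alone 43 of 45 such calls no longer passed and in set B alone 3 of 32.

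Between lines, the other ligands did not share one direction. Of 8 tested in WT against null cells, 2 were higher and 4 lower, beside 37.4% and 30.1% of all genes. Cxcl16 was higher by 1.498 ± 0.11 and Cxcl10 by 0.59 ± 0.19 (SE, log2; adjusted p = 0.000243 and 0.0405, limma). Ppbp (-1.83 ± 0.35), Ccl7 (-1.28 ± 0.22), the thymic chemokine Ccl25 (-0.74 ± 0.11) and Cx3cl1 (-0.71 ± 0.23) were lower, with adjusted p = 0.00581, 0.00384, 0.00265 and 0.0353 (limma). Ccl7 thus shared the direction of Ccl2 in this comparison, while Cx3cl1 went against Ccl17. The calls of Cx3cl1 and Cxcl10 were lost without 6 and 4 of the 8 libraries in turn.

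In set B, 6 of 12 other ligands were higher and 2 lower in rvWT than in null cells, beside 16% and 22.6% of all genes. The higher ones were Cxcl12, the stromal homing factor (1.76 ± 0.10), Cx3cl1 (1.53 ± 0.05), Ccl5 (1.40 ± 0.14), Cxcl10 (1.18 ± 0.12), Ccl7 (0.75 ± 0.12) and Ccl9 (0.54 ± 0.07), with adjusted p between 5.61e-05 and 0.00699 (limma). Ccl25 (-0.43) and Cxcl15 (-0.40) were lower. In sim cells 7 were higher and 1 lower, beside 13.9% and 20.8%. Cxcl12 (2.04 ± 0.10), Cx3cl1 (1.28 ± 0.05), Ccl5 (1.22 ± 0.14), Cxcl10 (1.17 ± 0.12), Cxcl5 (0.80 ± 0.12), Ccl7 (0.68 ± 0.12) and Cxcl15 (0.39 ± 0.08) were higher, with adjusted p between 0.000115 and 0.0146 (limma), and Ccl25 (-0.39) was lower. Both comparisons share the null libraries of set B, and the Ccl7, Ccl25 and Cxcl15 calls were each lost without 2 or more of the 8 libraries in turn, and the Cxcl5 call without 1. Between sim and rvWT cells only Cxcl15 passed among the ligands (0.78 ± 0.06, adjusted p = 0.0224, limma), and it did not pass with any 1 library left out.

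Of the chemokine receptors, 4 had values (Ccr7, Ackr3, Ackr4 and Ccrl2). Cxcr2, Ccr2 and Ccr4, the receptors of the 3 chemokines, were not analysed here. Ccrl2, a non-signalling receptor, was tested in set B only, where it was lower by 1.21 ± 0.11 in rvWT and by 1.19 ± 0.11 in sim cells (SE, log2; adjusted p = 0.00101 and 0.00127, limma).

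The NF-κB factors and their inhibitors, 15 of 18 listed genes with values, moved mostly at 4 h. At 1 h 2 of 14 tested genes rose, beside 3.95% of all genes higher, Bcl3 (0.58 ± 0.08) and Rel (0.38 ± 0.08; adjusted p = 0.00186 and 0.0174, limma), and the Rel call was lost without any of 6 libraries. At 4 h 11 of 14 rose and none fell, beside 11.9% of all genes higher and 27.1% lower. The inhibitor Nfkbie rose by 1.56 ± 0.09, the deubiquitinase Tnfaip3 (A20) by 1.23 ± 0.10, the precursor subunit Nfkb2 by 0.92 ± 0.09 and the ubiquitin ligase Birc3 by 0.63 ± 0.07 (SE, log2; adjusted p = 8.02e-06, 4.64e-05, 0.000103 and 0.000252, limma). At 16 h 4 of 14 rose, beside 6.84%: Nfkbie by 0.98, Tnfaip3 by 0.81, Nfkb2 by 0.49 and Birc3 by 0.46, and the calls of the last 2 were lost without 2 libraries and 1 library in turn. The median of the 14 was 0.00, 0.39 and 0.31 at 1, 4 and 16 h.

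Other inflammatory genes known as NF-κB targets were 10 tested of 18 listed. At 1 h 3 rose, beside 3.95% of all genes higher: the cytokines Lif (1.69 ± 0.26), Il6 (1.04 ± 0.22) and Csf1 (0.59 ± 0.10; adjusted p = 0.00309, 0.0175 and 0.00529, limma). At 4 h 6 rose, beside 11.9%, among them Lif (2.28 ± 0.28), the prostaglandin synthase Ptgs2 (1.88 ± 0.22), Il6 (1.84 ± 0.24) and the IL-33 receptor Il1rl1 (1.57 ± 0.23), with adjusted p between 0.000283 and 0.000814 (limma). At 16 h 4 rose, beside 6.84%: Il6 (1.72), Lif (1.67), Il1rl1 (1.56) and Ptgs2 (0.95), and each of these 4 calls was lost without at least 1 library. None passed downward at 1, 4 or 16 h, beside 2.01%, 27.1% and 12.5% of all genes lower, and nothing is read from this for Cxcl1. The medians were 0.13, 0.70 and 0.55, and the Il6 call at 1 h was lost without any of 5 libraries and with a pseudocount of 5.

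A list of factors linked to the stability of AU-rich mRNA, not all of which bind it, had values for 10 of 10 genes. At 1 h 3 rose, beside 3.95% of all genes higher: the decay factors Zfp36l2 (0.70 ± 0.16), Zfp36 (0.59 ± 0.12) and the endonuclease Zc3h12a (0.43 ± 0.08; adjusted p = 0.0232, 0.0135 and 0.0127, limma). Each of these calls was lost without some single libraries, 8, 3 and 2 of 16. At 4 h 4 rose and 2 fell, beside 11.9% and 27.1% of all genes, with Zc3h12a at 0.85 ± 0.09, Zfp36 at 0.60 ± 0.13, the stabilising factor Elavl1 at 0.22 ± 0.04 and Tia1 at -0.43 ± 0.11 (adjusted p = 0.000187, 0.00606, 0.00296 and 0.0128, limma), the last lost without 1 library. At 16 h only Zc3h12a passed, beside 6.84% higher and 12.5% lower over all genes (0.41 ± 0.12, adjusted p = 0.0376, limma), and not without any of 11 libraries.

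In the IL-4 and STAT6 pathway, 9 of 17 listed genes were tested. At 1 h 2 rose, beside 3.95% of all genes higher, the feedback inhibitor Cish (0.73 ± 0.10) and the receptor chain Il4ra (0.70 ± 0.12; adjusted p = 0.00133 and 0.00739, limma). At 4 h 3 rose and 1 fell, beside 11.9% and 27.1% of all genes: Cish (0.38), Socs1 (0.39) and Stat3 (0.28) against Socs3 (-0.53 ± 0.08, adjusted p = 0.00122, limma), and the calls of the 3 that rose were lost without some single libraries. At 16 h none of the 9 rose, beside 6.84% of all genes higher, and nothing is read from this for Ccl17. Socs3 stood at -0.67 ± 0.11 in log2 (SE, adjusted p = 0.00231, limma), beside 12.5% of all genes lower. The map of fitted changes places the chemokines beside the NF-κB, inflammatory and AU-rich groups.

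**Figure D4:**
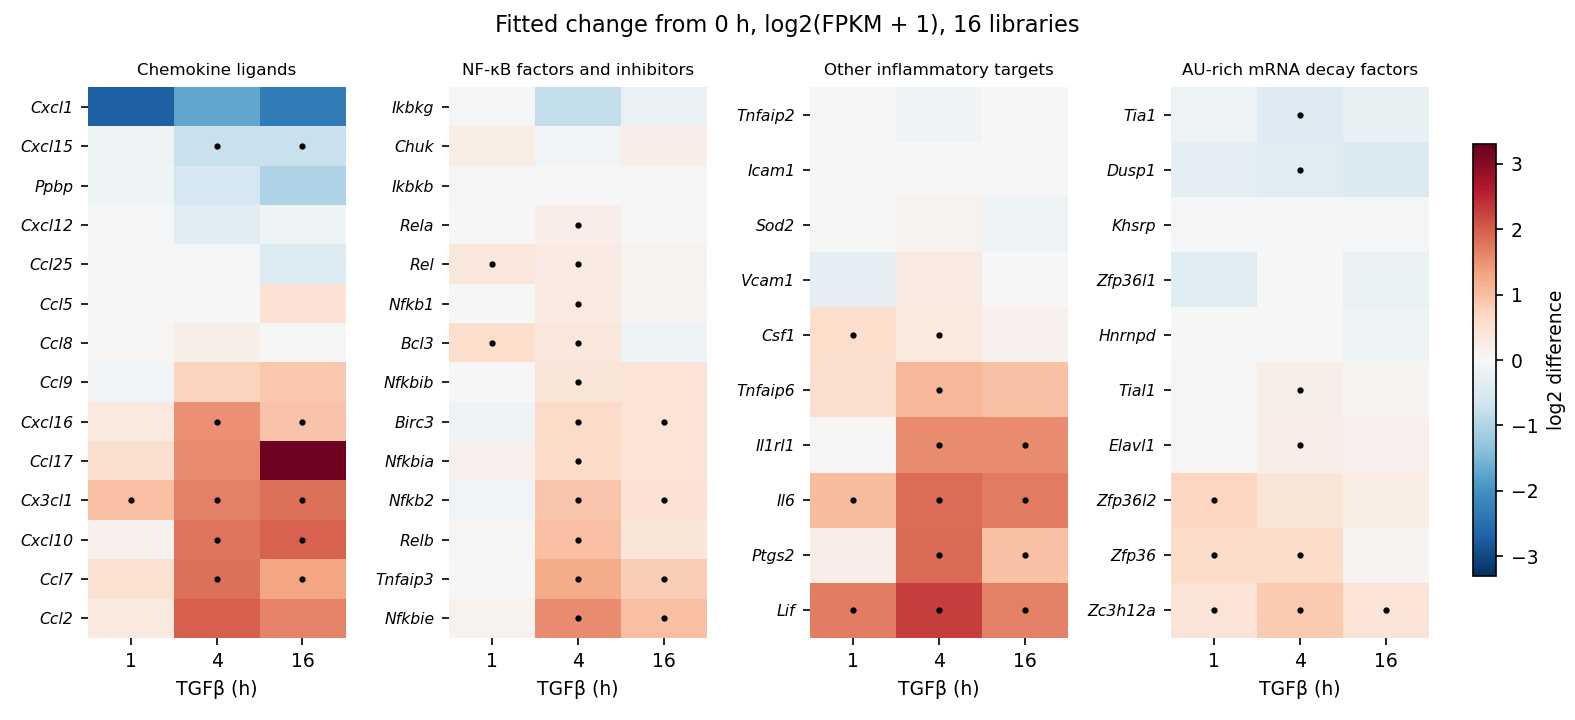
Fitted change from 0 h in log2(FPKM + 1) at 1, 4 and 16 h over 16 libraries for the tested chemokine ligands, NF-κB factors and inhibitors, other inflammatory targets and AU-rich decay factors (red higher, blue lower); dots mark an adjusted p below 0.05 (limma) for genes other than Cxcl1, Ccl2 and Ccl17, which carry none. Cxcl1 is the darkest blue entry of the map at 1 h (-2.69), and 11 of 14 NF-κB genes are marked at 4 h.

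The same lists were counted between WT and null cells. Of the list linked to AU-rich mRNA stability, 7 of 10 genes were lower in WT and 2 higher, beside 30.1% and 37.4% of all genes. Zfp36l2 stood at -1.20 ± 0.14, Hnrnpd at -1.09 ± 0.06, the phosphatase Dusp1 at -1.05 ± 0.12 and Zc3h12a at -0.59 ± 0.08 (adjusted p between 0.000132 and 0.00175, limma). Of the other inflammatory targets 7 of 11 were lower and 2 higher, among them Il1rl1 (-2.86 ± 0.19), Tnfaip2 (-1.87 ± 0.06) and Il6 (-1.65 ± 0.18) lower and Tnfaip6 (2.74 ± 0.31) higher, with adjusted p between 2.97e-05 and 0.000861 (limma). Of the NF-κB factors and inhibitors 5 of 14 were higher and 4 lower, a share close to that of all genes, with Tnfaip3 at 2.26 ± 0.09, Ikbkb at 0.64 ± 0.05, Birc3 at -1.32 ± 0.09 and Bcl3 at -0.49 ± 0.07 (adjusted p between 5.64e-05 and 0.00166, limma). Of the 9 inflammatory targets that passed, 2 had the direction of Cxcl1 and 7 that of Ccl2. In sim against null cells 1 of 15 tested NF-κB genes was higher and 5 lower, beside 13.9% and 20.8% of all genes. The 1 was Tnfaip3 (0.97 ± 0.07, adjusted p = 0.000657, limma). In rvWT against null cells 3 of 15 were higher and 3 lower, beside 16% and 22.6%. Tnfaip3 also passed as higher in sim than in rvWT cells, but not with any 1 library left out.

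Last, the genes whose course was most like that of each chemokine were sought, by Pearson's r of log2(FPKM + 1) after subtracting each series' mean, over 16 libraries and 8170 genes with a mean of at least 5 FPKM. The points share series and treatment times, so r is a description. For Cxcl1 they were the transcription factor Cebpd (r = 0.979), Cdc42ep3 (0.968), the growth factor inhibitor Spry2 (0.936), Mepce (0.925) and the protease Adamts1 (0.917). For Ccl2 they were Ccl7 (0.973), the kinase Prkca (0.972), Nfkbie (0.970), Zdhhc18 (0.967) and Stx6 (0.967). For Ccl17 they were Ctsw (0.984), the matrix protease Mmp14 (0.979), the collagen cross-linker Loxl2 (0.971), the lipid droplet protein Plin2 (0.964) and the collagen chain Col1a1 (0.953). The 3 were chosen for differing courses, so nothing is read from which nearest genes they share or from r between them. Among themselves, Ccl2 and Ccl17 had r = 0.783, Cxcl1 and Ccl2 -0.342, and Cxcl1 and Ccl17 -0.430.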

How the data were processed

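Polyadenylated RNA of 16 libraries was analysed. Per the submitters' processing notes, the genome build was mm9 and the tools included Cufflinks 2.2.1, SAMtools, STAR 2.3.0e and CASAVA 1.8.2. The authors deposited FPKM values for 12100 genes. Of 355 genes under 0.25 FPKM, 138 fell on whole-read steps (ratios of small whole numbers, tolerance 0.006 in log2). The number to be found without such steps was not computed. In WT cells at 1 h, Cxcl5 and Ppbp both stood at 0.4735 of 0 h, as whole-read steps can give. Whether the depth could be recovered was therefore not settled, and no count test was run.

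Values were tested as log2(FPKM + 1) with limma 3.58.1 (trend) in R 4.3.3, over genes with a mean of at least 1 FPKM in the fit, with Benjamini-Hochberg adjustment over all genes tested and a threshold of 0.05. Line differences were fitted within a set with time as a block. Changes after TGFβ were fitted over 16 libraries with series as a block. The difference in response was fitted over the same 16 libraries of both sets, with series as a block, time as a factor and a term for treated libraries of WT, rvWT and sim. The scripts were tested on simulated data. Named genes were the 3 chemokines, Rnf111, every chemokine ligand with a value, the cluster neighbours, up to 4 genes of each other list with the smallest p, and the 5 most alike genes. Exceptions are Cd74, chosen after its values were seen, and the other tested markers of its list. The 3 genes and all lists were chosen with earlier results of these data known. Alternatives were other pseudocounts, filters, scalings, variance models, sets, no time block, and leaving out each library. Promoter words were searched in RefSeq windows of GRCm38.p6, and mm9 coordinates were not used. A result for 1 gene of the IL-4 and STAT6 list is not reported here.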

Additional observations from a re-analysis of the deposited data

Results flagged for a closer look

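All 14 ligands tested after TGFβ were checked for lines in which every treated library moved in opposite directions from 0 h, over 84 pairs of lines, and 2 ligands of low level did so between rvWT and sim cells. The mean log2(FPKM + 1) change of Ccl5 over 1 and 4 h was 0.246 in rvWT and -0.247 in sim cells, with levels of 3.92 to 6.002 FPKM. That of Ccl8 was -0.680 in rvWT and 0.550 in sim cells, with levels of 1.32 to 3.05 FPKM. These differences between the 2 lines were not tested. Cxcl1, Ccl2 and Ccl17 showed no such opposition in any pair of lines.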

How the results depend on the processing

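Each line and time has 1 library per set, depth was not recovered and the pseudocount sets the size of changes at low levels. With a pseudocount of 5 the log2 change of Cxcl1 was -1.60, -1.16 and -1.44 at 1, 4 and 16 h and that of Ccl17 was 0.97 at 4 h and 2.17 at 16 h. With 0.1 that of Cxcl1 at 1 h was -3.34. The Ccl2 change at 16 h was 1.43 in set A alone, beside 1.63 fitted over both sets. No change after TGFβ of the 3 genes reversed in any setting.

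No time block left differences of 0.87, 1.43 and 1.13 for Ccl17 in WT, rvWT and sim against null. It left -0.48 for Ccl2 and 0.51 for Cxcl1 in WT, and none of these had an adjusted p below 0.05 (limma). Ccl2 in sim became 0.62. Set B has no null library at 4 h, so its differences without the block also hold the change at 4 h. In set A the change over time then enters the spread. Quantile normalization gave -0.34 for Ccl2 in WT (adjusted p = 0.130, limma) and 0.00826 in sim, and median-ratio scaling gave 0.47 for Cxcl1 in WT (adjusted p = 0.0514, limma). The difference in response of rvWT cells turned to -0.14 for Ccl17 with a pseudocount of 0.1, and to -0.17 for Ccl17 and -0.19 for Ccl2 in set B alone.

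With each library left out, Ccl2 at 16 h ranged from 1.56 to 1.76. WT minus null ranged from 0.70 to 1.14 for Ccl17, -0.64 to -0.34 for Ccl2 and 0.36 to 0.66 for Cxcl1. For sim minus null Ccl17 ranged from 0.64 to 0.80 and Cxcl1 from -1.06 to 0.19, for rvWT minus null Ccl2 from -0.053 to 0.075 and Cxcl1 from -1.22 to 0.030, and for sim minus rvWT Cxcl1 from -0.16 to 0.43. The difference in response ranged from -0.14 to 0.14 for Ccl17 and -0.11 to 0.40 for Ccl2 in rvWT, and -0.25 to 0.37 for Cxcl1 in WT. It could not be estimated without the line's own 0 h library.

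Genes called after TGFβ numbered 658, 4307 and 2139 at 1, 4 and 16 h, but 12, 16 and 245 in set A alone, and 400 to 815, 2658 to 4779 and 640 to 3026 with 1 library left out. Those called for rvWT, sim and sim minus rvWT numbered 4230, 3807 and 54, but 2200, 1777 and 7 without the time block and as few as 1946, 1581 and 1 with 1 library left out, and 93 for sim minus rvWT with robust variances. The counts for the difference in response, 2, 11 and 2, ranged from 1 to 9, 6 to 20 and 0 to 12. Of 86 calls of other named genes, 57 held with each library left out. Series and time entered the fits as blocks, and pairing by replicate number was not possible because the labels give none.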
